A study of Mus musculus with 10 samples.

Results

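The genes described here are a set of 45 chosen by name for their part in mitosis and cytokinesis, from the cyclins that start division to the proteins that part the daughter cells. They were measured in 10 mouse fetal livers, 5 wild type and 5 Zfp36l2 knockout, each from a different fetus at embryonic day 14.5 on a mixed b6 and 129 background. The tissue and the strain background were the same for both genotypes, and how the Zfp36l2 allele was made is not given in the sources used here. The Zfp36l2 protein, a relative of tristetraprolin, attaches to AU-rich stretches of mRNAs and speeds their decay. Every probe set of the array annotated with exactly 1 gene symbol, that symbol being in the set, was taken as a member. That gave 101 of 45037 probe sets, for 44 of the 45 genes, and 94 of the 101 passed the filter on dim probe sets, with each of the 44 genes keeping at least 1. No probe set met this rule for Ccnb1. Where a gene had several probe sets, the brightest tested one stands for it below, unless another is named.

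Mitosis is driven by Cdk1 bound to cyclins. Its kinases, Aurora and Polo among them, build the spindle, the kinetochores tie chromosomes to microtubules, and the spindle checkpoint holds back the anaphase-promoting complex until every chromosome is attached. Most of these mRNAs peak together late in the cell cycle, and in fetal liver, the main site of blood formation at this age, dividing erythroid precursors are the most common cells. In RNA from whole liver, fewer dividing cells and less of an mRNA per dividing cell cannot be told apart.

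The arrays had medians between 19.5 and 25.01 intensity units before quantile normalization. The targeted gene Zfp36l2 stood at 434 ± 91.0 in the wild type group and 102.0 ± 11.3 in the knockout group (SD, n = 5), with no overlap (limma adjusted p = 1.47e-06). A second, dim Zfp36l2 probe set did not differ beyond its spread (31.4 ± 10.8 and 25.1 ± 7.77). Hepatocyte markers Afp and Alb and the erythroid membrane protein gene Slc4a1 were bright in every liver, with Afp at 15733 or more, Alb at 13659 or more and Slc4a1 at 6249 or more. Of the 8 muscle and heart markers 7 averaged under 16 intensity units, as did 6 of 7 measured gut and pancreas markers.

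The mitosis and cytokinesis genes were, as a rule, slightly lower in the knockout livers, and no member passed the test. Of 44 tested members, 40 had a log2 difference (knockout minus wild type) below 0, against 49.9% of all 12821 tested genes. The median difference over the members was -0.12, or -8.26%, against 0.00 over all tested genes and -0.01 over the 4778 genes whose mean log2 value lay within the members' range. In limma 0 of 44 members were called at an adjusted p under 0.05, where 0.328% of all tested genes were called, 0.172% lower and 0.156% higher. The smallest adjusted p among members was 0.137, for Cdc25b. At an unadjusted p under 0.05, 13 members were lower (29.5%), against 5.44% of all tested genes, and 1, Pttg1, was higher, against 5.94%. In Mki67, Spc24 and Kif2c every knockout liver lay below every wild type liver, which is 6.82% of the members and 1.43% of all tested genes, while no member was higher without overlap (1.33% of all genes). Differences other than that of Pttg1 ran from -0.34 (Cdc25b) to 0.09 (Cenpa). Of the 4778 genes as bright as the members, 53.1% were below 0. In these, 8.81% were lower at an unadjusted p under 0.05 and 2.66% lower without overlap, both shares above those of all tested genes. With arrays scaled to a common median instead of quantile-normalized, 30 members were below 0, 3 were lower at an unadjusted p under 0.05, and the members' median was -0.05 where that of all probe sets was 0.05. All 44 differences were higher under that scaling, with -0.09 for Aurkb, -0.06 for Birc5, -0.01 for Cdca8, -0.13 for Cenpf, -0.08 for Ube2c, -0.14 for Kif23 and -0.03 for Prc1. Those 13 members became 6 without knockout replicate 2, 8 without wild type replicate 2 and 6 with eBayes without a trend.

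**Figure D1:**
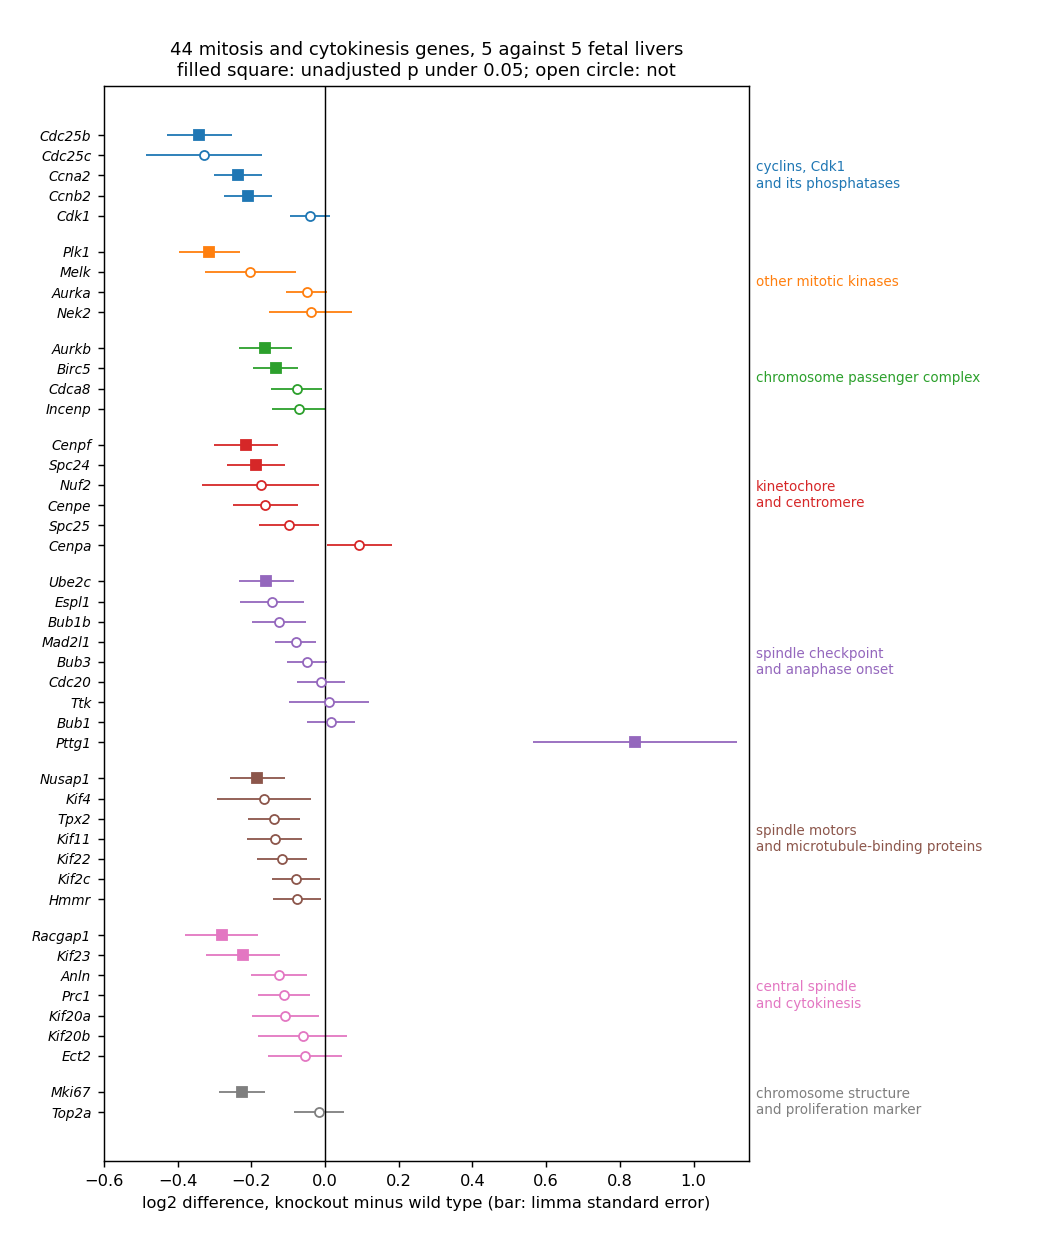
The log2 difference of each of the 44 members (knockout minus wild type, horizontal axis) with its limma standard error, in blocks by role; filled squares have an unadjusted p under 0.05. Points for 40 members lie left of 0, none beyond -0.34, and Pttg1 alone lies far to the right at 0.84.

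Mki67 encodes the proliferation antigen Ki-67, which coats mitotic chromosomes. Its intensities were 5214.5, 5618, 5711, 5711 and 6554 in wild type replicates 1 to 5 and 4698, 4533, 5153, 5199 and 5018 in knockout replicates 1 to 5. The highest knockout liver lay just under the lowest wild type liver. Any such lack of overlap gives an exact permutation p of 0.00794, the lowest value the design allows. The log2 difference was -0.23 ± 0.06 (SE; limma adjusted p = 0.182). With median scaling it was -0.12 (adjusted p = 0.642). Top2a, the topoisomerase that untangles sister chromatids, averaged 2794 ± 253 and 2759 ± 166 (SD, n = 5), a difference of -0.02 that is 0.047 with median scaling.

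Among the cyclins, Cdk1 and its phosphatases, all 5 tested members were below 0, with a role median of -0.24, and 3 had an unadjusted p under 0.05. Ccna2 encodes cyclin A2, which acts from S phase to early mitosis. It measured 2380.5, 2879.8, 2787, 2963 and 2651 in the wild type livers and 2159.8, 2244, 2515, 2392 and 2268 in the knockout livers. Wild type replicate 1 alone lay among the knockout livers, and the difference was -0.24 ± 0.07 (limma adjusted p = 0.169; exact permutation p = 0.0238). A second Ccna2 probe set gave -0.21. Ccnb2, for the mitotic cyclin B2, stood at 1798, 1962, 1909, 1821 and 2137 in wild type and 1624, 1501, 1643, 1713 and 1849.8 in knockout livers. Here knockout replicate 5 reached into the wild type range, and the difference was -0.21 ± 0.07 (adjusted p = 0.242). Cdc25b encodes a phosphatase that removes the inhibitory phosphates from Cdk1. Wild type livers gave 798, 853, 965.5, 686 and 956 for it and knockout livers 678, 644.5, 727, 609.5 and 683. Only wild type replicate 4 and knockout replicate 3 overlapped, and Cdc25b had the lowest difference of any member, -0.34 ± 0.09 (adjusted p = 0.137; exact permutation p = 0.0159). Its relative Cdc25c was dimmer and more variable, at 193 ± 21.0 and 157 ± 38.8 (-0.33 ± 0.16). Cdk1 itself averaged 2405 ± 87.6 and 2340 ± 145, a difference of -0.04 that turned to 0.007 with median scaling.

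Of the other mitotic kinases, Plk1 differed most. It encodes Polo-like kinase 1, needed for centrosome maturation, spindle assembly and cytokinesis. Its values were 883, 719.8, 908, 936.5 and 869 in wild type and 681, 661, 707, 621 and 799 in knockout livers. Wild type replicate 2 was low and knockout replicate 5 high, so the groups overlapped by 1 liver on each side (-0.31 ± 0.08, adjusted p = 0.142, exact permutation p = 0.0159). Aurka encodes Aurora A, the kinase of the spindle poles. Its readings of 984, 1026, 1049, 1012.5 and 1054 in wild type and 1012.5, 909, 1009, 1040.3 and 984 in knockout livers overlapped widely, and its difference of -0.05 ± 0.06 became 0.021 with median scaling. Melk, a kinase of the AMPK-related family, averaged 315 ± 50.1 and 272 ± 36.8 (-0.20 ± 0.12). Nek2, a kinase that separates centrosomes, averaged 478 ± 38.7 and 471 ± 86.7 (-0.04 ± 0.11, and 0.036 with median scaling). A second, dimmer Nek2 probe set gave 0.19 ± 0.115 (adjusted p = 0.630).

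The 4 subunits of the chromosome passenger complex, which corrects wrong attachments and later guides cytokinesis, had differences of -0.16 to -0.07. Aurkb, its kinase, measured 561, 603, 553, 557 and 546.8 in wild type and 489, 444, 504, 543 and 547.2 in knockout livers. The overlap came from knockout replicate 5, which lay just above wild type replicate 5 (-0.16 ± 0.07, adjusted p = 0.476, exact permutation p = 0.0159). A second Aurkb probe set gave -0.11 ± 0.08. Birc5, which encodes survivin, gave 1497, 1738, 1582, 1582 and 1697 against 1501, 1319.9, 1491.5, 1489 and 1579.8. Wild type replicate 1 stood low among the wild type livers, and the difference was -0.13 ± 0.06 (adjusted p = 0.496). Cdca8, for borealin, stood at 1537, 1770.4, 1798, 1870.1 and 1799.8 in wild type and 1654, 1445, 1696, 1730.5 and 1798.5 in knockout livers, groups that overlapped widely (-0.08 ± 0.07). Its 2 other probe sets gave -0.13 and -0.21, with unadjusted p of 0.0414 and 0.0160. Incenp, the scaffold, averaged 1258 ± 127 and 1195 ± 70.1, a difference of -0.07 that was 0.002 with median scaling. A second Incenp probe set gave -0.19 ± 0.08 (adjusted p = 0.428), and dim ones gave 0.003 and -0.008.

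Kinetochore and centromere genes had a role median of -0.17, with 5 of 6 below 0. Cenpf encodes a large outer kinetochore protein. It read 646, 824, 766, 752 and 879.6 in wild type and 643, 583, 647, 719 and 736 in knockout livers. Apart from wild type replicate 1, every wild type liver was above every knockout liver (-0.21 ± 0.09, adjusted p = 0.418). A dim Cenpf probe set, at 94.0 ± 24.3 and 50.6 ± 13.4, differed by -0.90 ± 0.26 with no overlap of the genotypes, also uncalled (adjusted p = 0.198), and another dim one by -0.16. Spc24, a subunit of the Ndc80 complex that grips microtubules, gave 436, 446, 421, 405.9 and 440.1 against 383, 319, 392, 397 and 401.6. No livers overlapped, although the nearest, at 401.6 and 405.9, were close, and the difference was -0.19 ± 0.08 (limma adjusted p = 0.436; exact permutation p = 0.00794), or -0.11 with median scaling. Nuf2 and Spc25, of the same complex, differed by -0.18 ± 0.16 and -0.10 ± 0.08. Single livers set both values, since Nuf2 was at -0.009 without knockout replicate 2 and Spc25 at -0.02 without wild type replicate 2. Cenpe, a kinetochore motor, differed by -0.16 ± 0.09, and by -0.42 ± 0.16 in a dimmer probe set (adjusted p = 0.373). Cenpa, the histone that marks centromeres, was on the other side of 0. Its values were 1033.5, 845, 905, 921 and 967 in wild type and 1058, 835, 883, 1068 and 1167 in knockout livers. The wild type livers all lay within the wider knockout range (0.09 ± 0.09, adjusted p = 0.802).

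Genes of the spindle checkpoint and anaphase onset had the role median nearest to 0, at -0.05, with 6 of 9 below 0. Ube2c encodes the ubiquitin-conjugating enzyme of the anaphase-promoting complex. It stood at 4902, 5279.7, 5279.7, 4479 and 5629.8 in wild type and at 4448, 3950.2, 4543, 5054 and 4926 in knockout livers. Wild type replicates 1 and 4 lay among the knockout livers (-0.16 ± 0.07, limma adjusted p = 0.503, exact permutation p = 0.0952). Checkpoint kinases Bub1 and Ttk had differences of 0.02 ± 0.06 and 0.01 ± 0.11, and Cdc20, the activator that the checkpoint holds back, one of -0.01 ± 0.07 (0.043 with median scaling). The checkpoint proteins Bub1b, Bub3 and Mad2l1 differed by -0.12, -0.05 (0.029 with median scaling) and -0.08. A second Bub1b probe set, nearly as bright, gave -0.22 ± 0.08 (adjusted p = 0.304), and a dim one -0.92 ± 0.39. A second, dimmer Bub3 probe set gave 0.06 ± 0.17. For Espl1, which encodes the cohesin-cutting protease separase, the difference was -0.14 ± 0.09.

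Pttg1 was unlike every other member. It encodes securin, the inhibitor of separase that is destroyed at anaphase. Its intensities were 2822, 1231, 1251, 1005.5 and 3187 in wild type replicates 1 to 5 and 2879.8, 2674.5, 2674.5, 4873 and 2554 in knockout replicates 1 to 5. Wild type replicates 2, 3 and 4 were at 1251 or less, wild type replicates 1 and 5 and the knockout livers at 2554 or more, and no liver lay between. A second probe set showed the same split, at 675, 262, 264.5, 222 and 847 in wild type and 665, 685.5, 715.5, 1255 and 662 in knockout livers. Over the 10 livers these 2 probe sets had a Pearson correlation of 0.996, as a description of 2 readings of 1 gene from the same arrays. The other one was dim, at 60.1 ± 30.0 and 63.1 ± 25.4. Because wild type livers were found at both levels, the genotypes overlapped. The log2 difference of 0.84 ± 0.28 was not called (limma adjusted p = 0.275, and 0.0725 to 0.756 over the 23 alternatives), and the exact permutation test gave p = 0.111. It was 0.65 without wild type replicate 4 and 1.07 without wild type replicate 5.

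**Figure D2:**
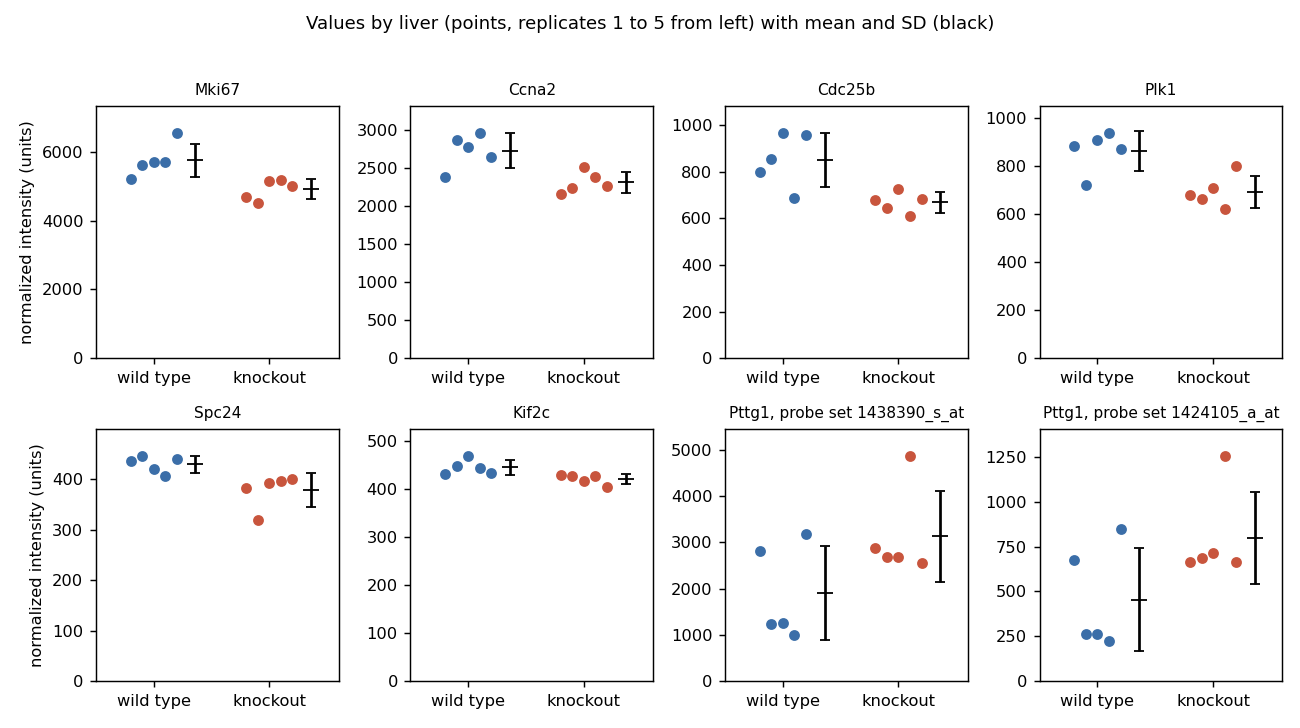
Normalized intensity (vertical axis, from 0) of 6 members and of 2 Pttg1 probe sets in each wild type (blue) and knockout (red) liver, with the mean and SD of 5 livers in black. Mki67, Spc24 and Kif2c show no overlap of the genotypes, and in both Pttg1 probe sets wild type replicates 2, 3 and 4 lie far below the other livers.

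All 7 spindle motors and microtubule-binding proteins were below 0, between -0.18 and -0.08. Nusap1 encodes a protein that bundles spindle microtubules near chromosomes. Wild type livers measured 1972, 2018, 2082.5, 1871 and 2535 and knockout livers 1778.5, 1745.5, 1786, 1876 and 1999.8. Wild type replicate 5 was the highest by far and 2 wild type livers lay under the highest knockout liver (-0.18 ± 0.07, adjusted p = 0.417). Kif2c, for the microtubule-depolymerizing kinesin MCAK, gave 431.1, 448, 469, 445 and 434 in wild type and 430.5, 427, 417, 428 and 405 in knockout livers. No livers overlapped, but the nearest were almost level, and the difference was -0.08 ± 0.06 (limma unadjusted p = 0.232, adjusted p = 0.749). The exact permutation p of 0.00794 follows from the lack of overlap alone. With median scaling the Kif2c difference was -0.007. The 2 other Kif2c probe sets averaging over 100 units differed by 0.07 and -0.05. Kif11, the motor that pushes spindle poles apart, differed by -0.14 in its brightest probe set and by -0.19 in another where no livers overlapped (462 ± 16.5 and 406 ± 47.1, adjusted p = 0.468). Kif22, a motor on chromosome arms, likewise differed by -0.12 in its brightest and by -0.14 without overlap in a second (675 ± 13.7 and 612 ± 40.1, adjusted p = 0.469). In a further probe set of each gene the livers overlapped, and Kif11 differed by -0.14 and Kif22 by -0.05. The remaining members of this role, Tpx2, Kif4 and Hmmr, had differences of -0.14, -0.17 and -0.08, that of Hmmr being 0.005 with median scaling.

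The 7 genes of the central spindle and cytokinesis were also all below 0, with a median of -0.11. Racgap1 and Kif23 encode the 2 parts of centralspindlin, which organizes the midzone and recruits the furrow machinery. Racgap1 measured 462, 569, 552, 588 and 581 in wild type and 371.5, 452.5, 419, 538 and 495.5 in knockout livers. Wild type replicate 1 was low and the other wild type livers were above all knockout livers (-0.28 ± 0.10, adjusted p = 0.329). A second Racgap1 probe set, at 404 ± 33.0 and 372 ± 44.1, differed by only -0.12 ± 0.09. In it knockout replicate 4 lay above every wild type liver. Kif23 stood at 535, 589, 429, 582 and 656 against 417, 483.5, 469.8, 495 and 511. Wild type replicate 3 alone lay among the knockout livers (-0.22 ± 0.10, limma adjusted p = 0.489, exact permutation p = 0.0952). Prc1 bundles the antiparallel microtubules of the midzone. Its readings of 756.5, 879, 869, 852 and 941 in wild type and 808.5, 717, 799, 865 and 786 in knockout livers overlapped (-0.11 ± 0.07, adjusted p = 0.649). A second Prc1 probe set gave -0.05 ± 0.12. Anln, a scaffold of the contractile ring, differed by -0.12 ± 0.08 and Ect2, which activates RhoA there, by -0.05 ± 0.10 (0.015 with median scaling). The kinesins Kif20a and Kif20b differed by -0.11 ± 0.09 and -0.06 ± 0.12, the latter 0.007 with median scaling.

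Across all 94 tested member probe sets 75 were below 0, 19 above and 0 called, against 0.211% of all tested probe sets. Of 29 genes with more than 1 tested probe set, 18 had all of them on 1 side of 0. Among the 19 genes with at least 2 probe sets averaging 100 or more in both genotypes this held for 16, the exceptions being Bub3, Kif2c and Nek2. With a gene's probe sets averaged, 37 members were below 0, Aurka (0.11), Bub3 (0.10), Tpx2 (0.11) and Nek2 (0.16) turned above 0 together with Cdc20 and Kif20b near it, and Cenpa (-0.26) and Bub1 (-0.15) turned below 0 with Ttk (-0.03).

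Single livers contributed unequally. Knockout replicate 2 held the lowest value of the 10 livers for 22 of 44 members, and knockout replicate 1 for 7. Wild type replicate 5 held the highest value for 16 members. Each liver was then given a score, the median over the members of how far its log2 value lay from the gene's mean. Wild type replicates 1 to 5 stood at 0.01, 0.08, 0.08, 0.02 and 0.14, and knockout replicates 1 to 5 at -0.08, -0.16, -0.05, 0.03 and -0.01. Only knockout replicate 4 lay within the wild type range. With median scaling the same livers stood at -0.06, 0.13, 0.02, -0.05 and 0.13 and at -0.14, -0.15, -0.04, 0.10 and 0.15, so that the genotypes overlapped widely. Without knockout replicate 2 the median difference of the members was -0.09.

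**Figure D3:**
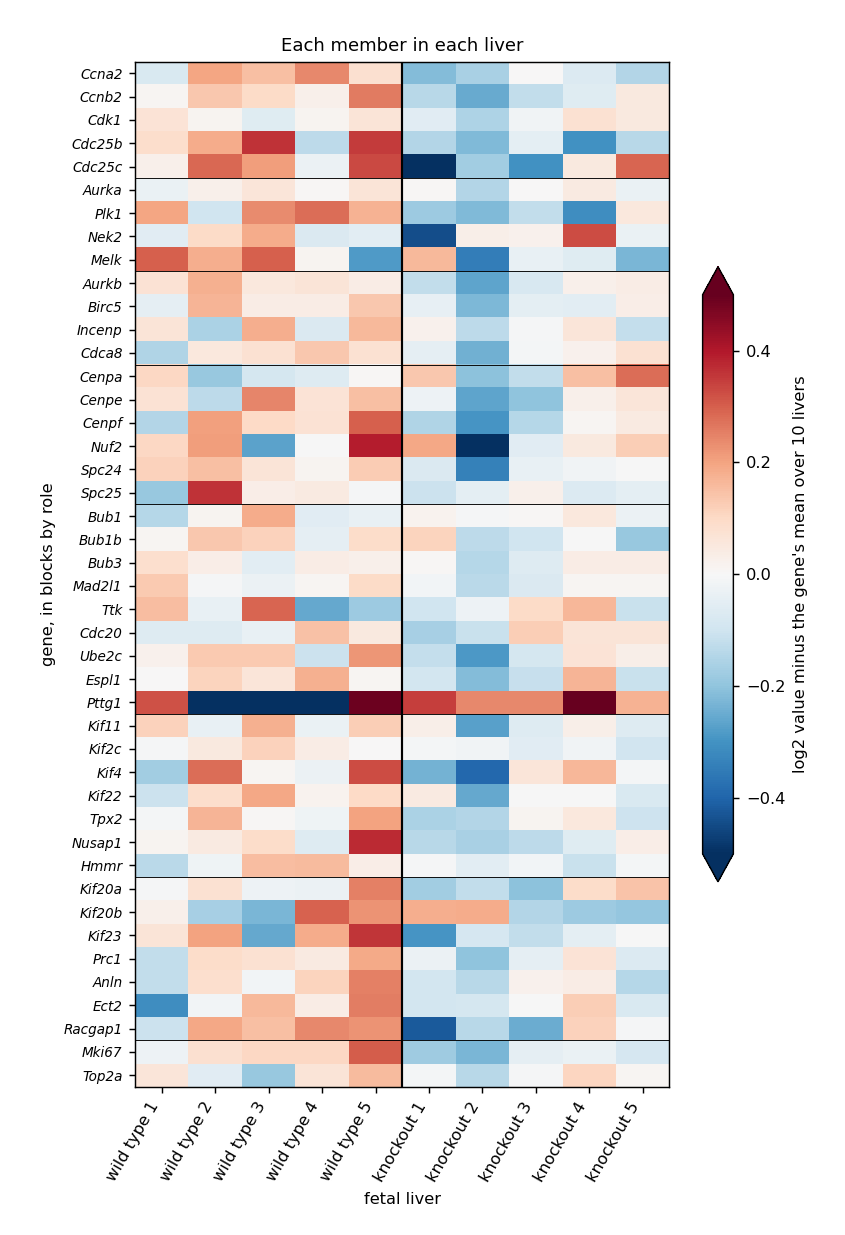
Each member's log2 value minus its mean over the 10 livers (colour, cut at 0.5 on either side) for each liver, with wild type left and knockout right of the black line and thin lines between roles. The column of knockout replicate 2 is mostly blue, that of wild type replicate 5 mostly red, and the row of Pttg1 departs from the others.

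Members also varied together within a genotype. After genotype means were removed, the median Pearson correlation over 946 pairs of members was 0.27, and 74.5% of pairs were above 0. For pairs among all tested genes the median was 0.00, with 50.04% above 0. The members' value was below those of the DNA replication list (0.35, 80.7% of pairs above 0) and the erythroid markers (0.59, 96.7%). These values describe the same 10 arrays, share their normalization and carry no test. With median scaling the members' median was 0.561, that of the DNA replication list 0.555 and that of the erythroid markers 0.70. The size of the members' median, and its order against the replication list, therefore depend on the scaling. With quantile normalization the members' median was 0.13 in the 5 wild type and 0.38 in the 5 knockout livers alone. That difference was not tested. The median over all tested genes was taken only with quantile normalization and genotype means removed. The medians with median scaling or within 1 genotype therefore have no such baseline. Set against the median profile of the other members, 38 of 44 members correlated above 0 and 21 above 0.5. Kif4, Cenpf, Prc1, Ube2c, Aurka and Ccnb2 led, at 0.92, 0.89, 0.88, 0.86, 0.85 and 0.81. Kif20b (-0.47), Melk (-0.16), Plk1 (-0.155), Kif2c (-0.12), Ttk (-0.07) and Hmmr (-0.01) were the 6 members that correlated below 0. Pttg1 stood at 0.24.

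Promoters of late cell cycle genes are known for CCAAT boxes, bound by NF-Y, and for the cell cycle genes homology region (CHR), read by the DREAM and MuvB complexes. RefSeq promoter windows (GRCm38.p6, 250 bases before to 50 after the start) matched 37 of the 44 genes, in 40 windows. CCAAT was found on either strand in 77.5% of member windows and in 37.4% of all 32851 windows, and 2 or more copies in 52.5% and 11.7%. The CHR letters TTTGAA were in 75.0% of member windows and 17.9% of all, and the variant TTTAAA, which reads the same on both strands, in 17.5% and 13.2%. A CCAAT box and 1 of both CHR forms stood in the same window in 70.0% of member windows against 10.7% of all. Sites of the E2F type (TTTCCCGC, TTTGGCGC, TTTGCCGC or TTTCGCGC) were in 2.5% and 2.26%. The members were chosen by function, so these shares describe the set, and a match is a run of letters and no shown site of binding.

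The promoters of the 6 members that followed the common profile most closely are printed 5′ to 3′ on the gene's strand. Whether these letters go with the profile was not tested. Capitals mark the CCAAT box and both CHR forms. On the opposite strand the box reads ATTGG. The first CHR form reads TTCAAA there. They lie at chrX:100625815-100626114 (+ strand) for Kif4, chr1:189688037-189688336 (- strand) for Cenpf, chr7:80294201-80294500 (+ strand) for the first of 2 overlapping windows of Prc1, chr2:164769679-164769978 (+ strand) for Ube2c, chr2:172370521-172370820 (- strand) for Aurka and chr9:70421505-70421804 (- strand) for Ccnb2.
Kif4: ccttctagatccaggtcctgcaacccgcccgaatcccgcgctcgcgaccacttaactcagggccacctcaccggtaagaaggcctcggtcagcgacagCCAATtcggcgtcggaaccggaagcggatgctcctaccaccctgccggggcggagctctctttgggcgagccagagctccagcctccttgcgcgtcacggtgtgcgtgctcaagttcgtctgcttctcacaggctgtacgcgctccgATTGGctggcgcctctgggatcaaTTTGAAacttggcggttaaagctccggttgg
Cenpf: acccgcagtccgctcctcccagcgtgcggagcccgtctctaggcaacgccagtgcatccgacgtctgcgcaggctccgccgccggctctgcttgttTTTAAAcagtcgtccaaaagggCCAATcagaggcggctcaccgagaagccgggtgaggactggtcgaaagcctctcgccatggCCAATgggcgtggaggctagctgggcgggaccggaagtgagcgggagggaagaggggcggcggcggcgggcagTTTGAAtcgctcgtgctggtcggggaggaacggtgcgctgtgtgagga
Prc1: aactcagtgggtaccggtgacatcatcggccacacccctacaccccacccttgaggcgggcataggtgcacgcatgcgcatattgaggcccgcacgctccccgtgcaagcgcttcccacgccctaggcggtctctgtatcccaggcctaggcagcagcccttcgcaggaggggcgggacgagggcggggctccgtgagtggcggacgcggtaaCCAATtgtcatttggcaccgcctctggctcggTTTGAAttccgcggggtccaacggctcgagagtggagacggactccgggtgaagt
Ube2c: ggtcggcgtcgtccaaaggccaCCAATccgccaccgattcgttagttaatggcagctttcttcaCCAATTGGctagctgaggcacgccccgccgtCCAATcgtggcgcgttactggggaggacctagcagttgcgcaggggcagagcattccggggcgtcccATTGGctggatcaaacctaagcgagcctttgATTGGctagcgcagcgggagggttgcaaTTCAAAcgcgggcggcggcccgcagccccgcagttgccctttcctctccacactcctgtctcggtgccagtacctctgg
Aurka: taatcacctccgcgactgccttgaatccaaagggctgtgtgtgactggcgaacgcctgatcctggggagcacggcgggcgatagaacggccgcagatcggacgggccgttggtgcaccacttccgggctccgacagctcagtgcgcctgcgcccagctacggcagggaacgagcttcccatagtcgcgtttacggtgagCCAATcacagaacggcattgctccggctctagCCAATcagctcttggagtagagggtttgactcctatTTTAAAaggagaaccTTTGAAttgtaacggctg
Ccnb2: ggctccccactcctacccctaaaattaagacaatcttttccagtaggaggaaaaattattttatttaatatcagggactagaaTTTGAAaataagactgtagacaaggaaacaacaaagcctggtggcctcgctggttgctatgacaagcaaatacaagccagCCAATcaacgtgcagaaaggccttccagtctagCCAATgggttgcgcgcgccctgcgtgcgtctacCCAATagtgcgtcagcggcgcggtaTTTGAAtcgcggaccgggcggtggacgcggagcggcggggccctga

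In Prc1 the CCAAT box began 37 and the TTTGAA 5 bases before the start. In Cenpf the CCAAT boxes began 132 and 71 bases before it and TTTGAA on base 3 of the transcript, with a TTTAAA 154 bases before the start. In Ccnb2 the 3 CCAAT boxes began 87, 54 and 21 bases before it, evenly spaced, with TTTGAA 167 bases before it and again on base 5. Ube2c held 6 CCAAT boxes, of which a pair overlapped on opposite strands, and a TTCAAA beginning 29 bases before the start. Aurka held CCAAT boxes 51 and 19 bases before the start and had TTTAAA on base 18 and TTTGAA on base 33. Kif4 held 1 box 152 bases before the start, another on the opposite strand 5 bases before it, and TTTGAA on base 20.

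Other genes of mitosis, in 6 lists that do not share genes with the set, lay on the same side. Of 130 tested, 100 were below 0 with a median of -0.10, and 0 were called. At an unadjusted p under 0.05, 20 were lower (15.4%) and 1 higher, against 5.44% and 5.94% of all tested genes. Among the 4778 genes as bright as the members 8.81% were lower. These counts and differences, and those of the lists that follow, were taken with quantile normalization only, not with median scaling. Condensin, cohesin and their guards had 18 of 21 below 0 and a median of -0.11. There Ncapd2, a condensin subunit, averaged 1208 ± 58.7 and 990.4 ± 73.1 with no overlap (-0.29 ± 0.06, limma adjusted p = 0.0753). Other spindle and centrosome genes had 24 of 27 below 0 and a median of -0.14, with Psrc1, a microtubule-binding protein gene, at 151 ± 28.2 and 100.4 ± 9.57 (-0.57 ± 0.15, adjusted p = 0.130). Other kinetochore and centromere genes had 23 of 31 below 0 and a median of -0.09, with Cenph at 358 ± 26.8 and 280.0 ± 26.7 (-0.35 ± 0.09, adjusted p = 0.119). In the list of transcriptional and kinase control of entry 20 of 25 were below 0, with a median of -0.08, and Cks2, a Cdk1-binding protein gene, averaged 3690 ± 94.95 and 3276 ± 182 (-0.17 ± 0.05, adjusted p = 0.209). The anaphase-promoting complex and its regulators had 8 of 15 below 0 and a median of -0.01, yet held Fbxo5, the gene of its inhibitor Emi1, at 1001 ± 54.0 and 783 ± 78.4 without overlap (-0.36 ± 0.07, adjusted p = 0.0604), the nearest to a call of all 130. Other cytokinesis genes had 7 of 11 below 0 and a median of -0.01, and Cep55, which recruits the abscission machinery, stood at 118 ± 13.3 and 149 ± 14.7 (0.33 ± 0.13, adjusted p = 0.394).

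DNA replication genes, active earlier in the cycle, had 36 of 38 below 0 and a median of -0.17. Of these, 0 were called and 17 were lower at an unadjusted p under 0.05 (44.7%, against 5.44% of all tested genes). Rfc4, a clamp loader subunit, had the smallest p, at 1285 ± 50.6 and 1102 ± 46.6 (-0.22 ± 0.05, adjusted p = 0.109). Their median deviation by liver was lowest in knockout replicate 2 (-0.19), as for the members, and highest in wild type replicate 4 (0.16). With median scaling it was highest in wild type replicate 2 (0.17), wild type replicate 4 stood at 0.08, and knockout replicates 4 (0.13) and 5 (0.10) lay inside the wild type range. Whether the replication and mitosis genes differ from each other in their change was not tested.

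Markers of several cell types lay mostly to 1 side of 0 beside these genes. Of 16 tested erythroid markers 15 were below 0, with a median of -0.21 and 0 called. At an unadjusted p under 0.05, 11 were lower (68.75%), against 5.44% of all tested genes. The erythroid markers' summed intensity ran from 41349.5 to 52776 in wild type and 39254 to 44911 in knockout livers. Of the 17 with a probe set Hba-a1 alone was at or below 0 in a liver. Their deviation was highest in wild type replicate 5 (0.22), as for the members, and lowest in knockout replicates 1 (-0.19) and 2 (-0.16). With median scaling the erythroid markers were again highest in wild type replicate 5 (0.22). The members were then highest in knockout replicate 5 (0.15), where the erythroid markers stood at 0.06. Of 13 megakaryocyte and platelet markers 8 fell at a limma adjusted p under 0.05, against 0.172% of all tested genes. The median of these markers was -1.11 (summed intensity 4549 to 6575 in wild type, 1983.5 to 3177 in knockout livers, none at 0). All 10 tested macrophage markers were above 0, with a median of 0.35 and 0 called (sums of 3222 to 6277 and 5500.3 to 6844.5, with Cd163 at or below 0 in a liver). So were 9 of 11 neutrophil markers, with a median of 0.93 and 0 called (sums of 6394 to 28085 and 14216 to 26904, none at 0). Hepatocyte markers had a median of 0.08, with sums of 78558 to 89627 and 78411 to 92507. Endothelial markers had a median of 0.09 (4 of 9 below 0) and stellate and mesenchymal markers 0.07 (2 of 8 below 0), with 0 called. Of these Pecam1, Des and Wt1 were at or below 0 in a liver. Both lists stood highest in knockout replicate 2, at 0.30 and 0.47, the liver with the lowest value for 22 of 44 members. The part of these markers' shifts in the members' values was not tested.

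**Figure D4:**
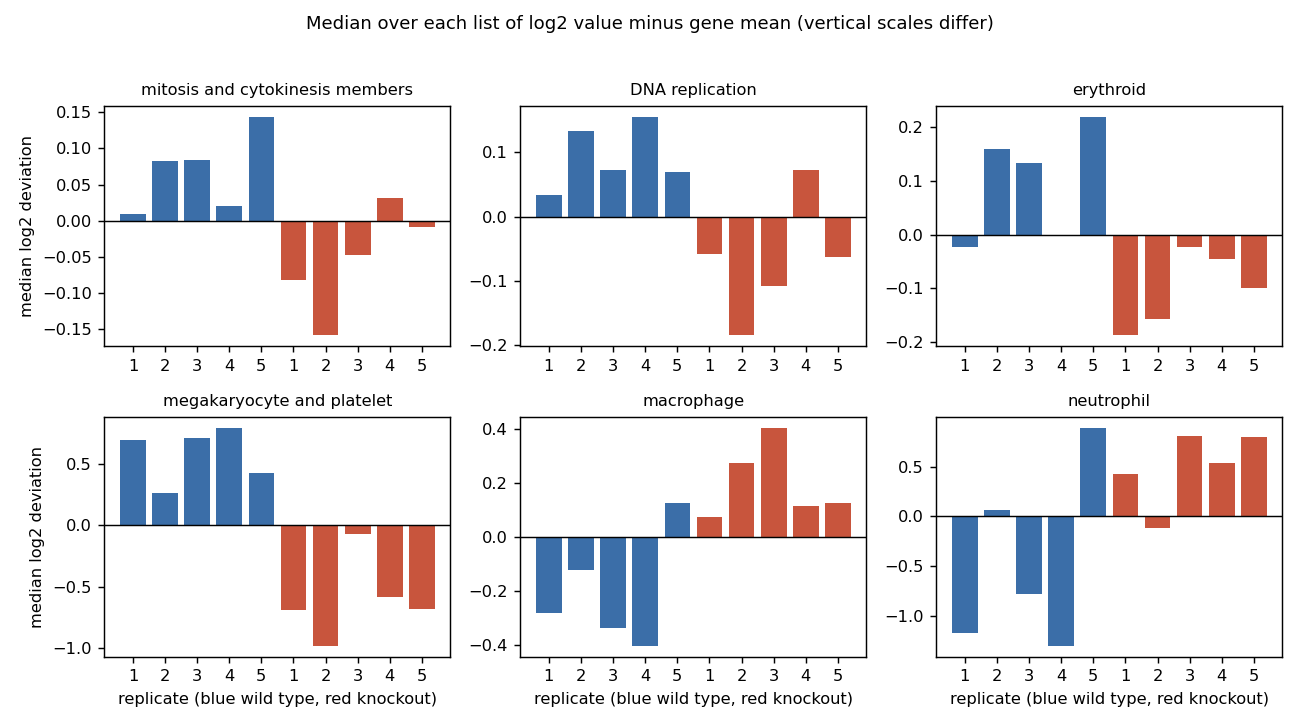
For each liver, the median over a list of the log2 distance from the gene's mean over 10 livers (vertical axis, its scale differing between panels), for the 44 members, DNA replication genes and 4 lists of cell type markers, wild type blue and knockout red. The members, replication and erythroid genes have their wild type bars mostly above and their knockout bars mostly below 0, by 0.22 at most.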

How the data were processed

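One array per liver was analysed, 5 wild type and 5 knockout. Per the labels' protocols, 1 µg of total RNA per liver was amplified and biotin-labelled with an Affymetrix kit. The deposited values are linear intensities, 1 for each probe set on an array, and some are below 0 (20.7% to 22.6% of an array at or below 0). How the authors made and scaled these intensities is not given in the sources used here.

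Intensities were quantile-normalized and values under 16 set to 16 before log2 was taken, since a floor at the lowest positive value turns dim values into extreme ones. The dimmest probe sets, under the 40th percentile of mean log2, were dropped, leaving 27022 of 45037. Genotype was tested (two-sided) by limma 3.58.1 under R 4.3.3, with a trended eBayes and Benjamini-Hochberg adjustment over all 27022 and a threshold of 0.05, which "called" means. It called 57 probe sets, 28 lower and 29 higher, or 25 lower and 69 higher with median scaling. SDs are over 5 livers on the normalized intensity scale and SEs are limma's. Exact permutation tests are two-sided over 5 against 5 livers on log2 values, and their p is unadjusted. Each liver is a separate fetus, and the number of arrays limits the precision. The fit was tested on simulated data.

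Genes given in full are members with an unadjusted p under 0.05 or no overlap, and the brightest member of each role. From each other list of the pathway the gene with the smallest p is named. A member's further probe sets were named after their values were seen. The members, lists and the floor were chosen with earlier results of these data known. The platform annotation gave 1 symbol for 34945 probe sets, several for 932 and none for 9160. Alternatives covered normalization, floor, filter, variance model, replicate block, averaging of probe sets and leaving out each liver. Plots used matplotlib 3.10.9 (Python 3.11.15).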

Additional observations from a re-analysis of the deposited data

Results flagged for a closer look

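By Dixon's ratio a single liver stood apart within its genotype in 7 of the 90 groups of 5 examined. Chance alone would give some 1 in 20, that is 4.5. On the log2 scale Pttg1 was high in knockout replicate 4 (12.25, an intensity of 4873, nearest 11.49). Spc24 (8.32, nearest 8.58) and Nuf2 (7.83, nearest 8.52) were low in knockout replicate 2, the liver with the lowest value for 22 of 44 members. Racgap1 (8.85, nearest 9.11) and Cdca8 (10.59, nearest 10.79) were low in wild type replicate 1. In wild type replicate 2 Plk1 was low (9.49, nearest 9.76) and Aurkb high (9.24, nearest 9.13).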

How the results depend on the processing

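No member was called in 22 of 23 alternatives. With the replicate number as a block 1 was, Cdc25b (adjusted p = 0.0398), and 179 probe sets were called in all. Same-numbered livers correlated at 0.03 to 0.13, and 3 of 5 wild type livers correlated best with their own number. The main fit has no block because no label ties the replicate numbers to a litter or batch. Whether the numbers pair livers was not tested. Probe sets called were 94 with median scaling, 103 with array quality weights, 101 with robust eBayes, 9 without trend, 11 with a floor at the lowest positive value, 12 with a floor of 32, 4 without the filter, and, without 1 liver, 168 (wild type replicate 5), 13 (wild type replicate 4) or 15 to 34 (the others). The members' median was -0.054 with median scaling and -0.16 to -0.09 without 1 liver. Members lower at an unadjusted p under 0.05 numbered 3 with median scaling, 6 without trend and 6 to 15 without 1 liver, and members below 0 numbered 38 to 41 without 1 liver. The median pairwise correlation was 0.56 with median scaling. Among single members, signs turned in these. With median scaling they were Top2a (0.047), Cdk1 (0.007), Aurka (0.021), Bub3 (0.029), Cdc20 (0.043), Kif20b (0.007), Incenp (0.002), Ect2 (0.015), Hmmr (0.005) and Nek2 (0.036). With a gene's probe sets averaged they were Aurka (0.11), Bub1 (-0.155), Bub3 (0.099), Ttk (-0.027), Cdc20 (0.032), Kif20b (0.023), Cenpa (-0.26), Tpx2 (0.11) and Nek2 (0.16). Array weights turned Top2a (0.009) and Cdc20 (0.008), and deposited values without further normalization Ttk (-0.010). Leaving out 1 liver gave -0.018 to 0.064 for Bub1, -0.043 to 0.030 for Cdc20, -0.139 to 0.004 for Ect2, -0.126 to 0.004 for Kif20b, -0.125 to 0.067 for Nek2, -0.065 to 0.021 for Top2a and -0.053 to 0.084 for Ttk. The cause of these shifts was not tested. In a window from 150 bases before the start, 75.0% of member promoters held CCAAT and 72.5% TTTGAA, against 28.55% and 11.21% of all promoters.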
